A study of Danio rerio with 21 samples.

Results

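The genes described here encode the proteasome, the particle that degrades proteins tagged with ubiquitin, in whole zebrafish larvae of a *pomgnt2* mutant line. They were taken from the deposited counts by symbol: 56 of 36351 genes had a symbol made of "psm", a letter from a to g and a digit, and the 54 with at least 10 counts in at least 3 samples were kept. The core particle was represented by 21 of these genes, 9 of the alpha ring and 12 of the beta ring, and the regulatory particle by 23. The other 10 were 5 activators, the inhibitor *psmf1*, 3 chaperones of core assembly, and *psmc3ip*, which fits the pattern by name but encodes a recombination protein and no subunit. The genes *psmb11a* and *psmb11b* were left out, with 14 and 15 counts over all samples.

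Pomgnt2 is an enzyme that extends the sugar chains of dystroglycan, the receptor that ties muscle fibers to the surrounding matrix. All fish were of the EK strain, and the line used by the authors carries frameshifts in both coding exons. RNA came from pools of 4 to 6 whole larvae, with 3 pools in each of 7 groups. Crosses of Het (+/-) females with Het males gave WT (+/+), Het (+/-) and ZKO (-/-) larvae at 5 dpf. Crosses of ZKO (-/-) females with Het males gave MHet (+/-) and MZKO (-/-) larvae at 5 dpf and, at 10 dpf, which the labels give as batch 2 and the 5 dpf samples as batch 1. The mother's genotype and the kind of cross therefore cannot be told apart, and neither can age and batch. Of the groups, WT, Het and ZKO were sampled at 5 dpf alone, and no WT larvae of ZKO mothers exist in such a cross. The *pomgnt2* transcript was still counted in every pool, at 13.1 to 19.9 CPM (counts scaled to the size of the library), so its level did not check the genotype labels. Pools held 16959935 to 22439739 counts, and 3 counts, taken as the floor, were 0.133 to 0.196 CPM, which covers counting error only. Total RNA was taken from whole animals, so fewer cells of a type and less RNA per cell cannot be told apart.

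The proteasome is built from a barrel and its caps. In the barrel, alpha subunits gate the entry and beta subunits, of which Psmb5, Psmb6 and Psmb7 are catalytic, cut the protein. A cap, the regulatory particle, sits on the barrel: its base holds a ring of ATPases (the Psmc proteins) that unfold the protein, and its lid holds Psmd14, which removes the ubiquitin chain. In vertebrates an immune variant swaps the catalytic subunits for inducible ones and is known for producing peptides for antigen presentation, and other activators, Psme1 to Psme4, can take the place of the cap. In muscle the system is known for breaking down the contractile proteins when fibers waste. No sequences are shown, as none were in the sources used here.

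At 5 dpf the genes of the cap stood higher in larvae of ZKO mothers than in larvae of Het mothers, and those of the barrel less so. The summed level of the 23 regulatory genes was 1010, 1039 and 948 CPM in the Het pools and 1443, 1412 and 1394 CPM in the MHet pools, and these ranges did not overlap. It was 1139, 1004 and 1012 CPM in ZKO and 1145, 1250 and 1281 CPM in MZKO, where the lowest MZKO pool lay just above the highest ZKO pool. The summed level of the 21 core genes was 789, 836 and 718 CPM in Het and 1023, 973 and 989 CPM in MHet. In ZKO it was 962, 808 and 809 CPM and in MZKO 805, 899 and 844 CPM, so that the core ranges of these knockouts overlapped. WT pools lay at 889, 825 and 774 CPM for the core and at 1075, 1022 and 1013 CPM for the cap.

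The ratio of regulatory to core level separated the pools by mother. WT pools had a ratio of 1.25 ± 0.051, Het pools 1.28 ± 0.038 and ZKO pools 1.23 ± 0.036 (SD, n = 3), against 1.42 ± 0.023 for MHet and 1.44 ± 0.066 for MZKO. The 6 pools of ZKO mothers ranged from 1.39 to 1.52 and the 9 pools of Het mothers from 1.18 to 1.32, with no overlap. At 10 dpf the ratio was lower, at 1.203 ± 0.014 for MHet and 1.06 ± 0.045 for MZKO (SD, n = 3), and the MZKO pools (1.09, 1.08 and 1.01) all lay below the MHet pools. These ratios describe sums over genes and carry no test.

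**Figure D1:**
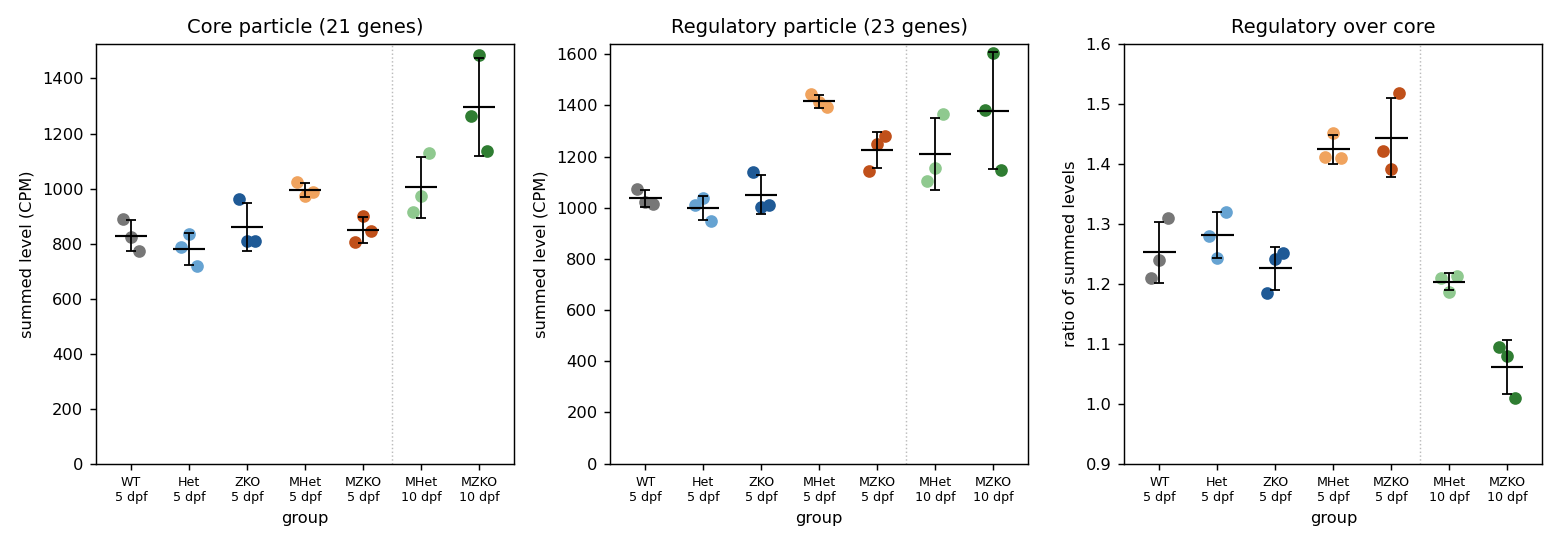
Summed level of the 21 core genes (left, CPM from 0) and of the 23 regulatory genes (middle, CPM from 0) and the ratio of the sums (right, axis from 0.9 to 1.6) in each of the 7 groups; each point is a pool, the long line is the mean of 3 pools and the bar its SD, and the dotted line separates 5 dpf from 10 dpf. The ratio lies at 1.39 to 1.52 in the 6 pools of ZKO mothers at 5 dpf, above the 1.18 to 1.32 of the other pools of that age.

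Each gene was tested in edgeR quasi-likelihood fits over all genes and called at a Benjamini-Hochberg adjusted p under 0.05. At 5 dpf 50 of the 54 genes were tested, because *psmb8a*, *psmb9a*, *psmb12* and *psmb13a* fell under the filter on low counts. Comparing MHet and MZKO with Het and ZKO, 26 of 50 were higher in larvae of ZKO mothers and 1, *psmc3ip*, was lower, where 15.6% of all 24846 genes were called higher and 15.8% lower. The median log2 fold change of the 50 was 0.21, against 0.0010 over all genes, and 12 had groups that did not overlap, the higher being those of ZKO mothers, as did 6.16% of all genes. The higher calls were 18 of 23 regulatory genes, 6 of 17 core genes and 2 of 5 activators. Under the thresholds used by the authors (an adjusted p below 0.01 with a log2 fold change beyond 0.7 in size) *psmc3* and *psme4a* remained, and 6.01% of all genes.

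Markers of other tissues moved in the same contrast. All 4 lens markers were lower in larvae of ZKO mothers (median -0.93), with a summed level of 823 to 988 CPM in Het, 749 to 967 CPM in ZKO, 504 to 632 CPM in MHet and 394 to 454 CPM in MZKO. Of 7 neuron markers 5 were lower and 0 higher (median -0.30), with 2389 to 2532 CPM in Het, 2466 to 2684 CPM in ZKO, 2091 to 2108 CPM in MHet and 1865 to 1932 CPM in MZKO. Of 12 muscle markers 4 were lower and 1 higher, and of 10 liver markers 0 were lower and 3 higher. No lens, neuron, muscle or liver marker was at 0 in any pool, and the part of these tissues in the proteasome values was not tested.

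Among the regulatory genes the calls followed the parts of the cap. All 7 ATPase genes (*psmc1a* to *psmc6*) were higher, with log2 fold changes of 0.18 to 0.72, as were 8 of 9 lid genes, of which *psmd13* at 0.12 was not called, and 3 of 4 genes of the scaffold and ubiquitin receptors of the base (*psmd1*, *psmd2* and *psmd4b*). None of the 3 chaperones that assemble the base (*psmd5*, *psmd9* and *psmd10*) and none of the 3 that assemble the core (*psmg1*, *psmg2* and *psmg3*) was called in edgeR, with log2 fold changes of -0.12 to 0.15 and -0.21 to -0.015. In the core 4 of 9 alpha genes (*psma1*, *psma3*, *psma5* and *psma6b*) and 2 of 8 beta genes (*psmb5* and *psmb7*) were called higher. The calls nearest the threshold were not stable: *psmc5* lost its call in 7 of 12 fits that left out a pool and *psmc3ip* in 8 of 12, with log2 fold changes that stayed between 0.14 and 0.22 and between -0.55 and -0.40. The levels of *psmc3ip* were 4.09, 3.93 and 3.74 CPM in Het, 5.18, 4.54 and 3.51 CPM in ZKO, 2.67, 2.63 and 3.59 CPM in MHet and 3.04, 3.46 and 2.54 CPM in MZKO, which overlap. Of the chaperones, *psmd5* was at 13.9, 11.3 and 11.3 CPM in Het, 12.4, 11.6 and 13.5 CPM in ZKO, 13.8, 14.6 and 15.9 CPM in MHet and 11.5, 12.2 and 14.5 CPM in MZKO. For *psmg1* the levels were 11.9, 15.4 and 12.1 CPM in Het, 15.1, 14.5 and 10.9 CPM in ZKO, 16.4, 12.7 and 13.7 CPM in MHet and 11.5, 10.5 and 14.4 CPM in MZKO, and in both genes the groups overlapped.

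The mother's effect was tested in each own genotype. In MHet against Het, 32 of 50 genes were higher and 0 lower, beside 8.19% and 8.76% of all genes. The median was 0.41, with 20 of 23 regulatory and 10 of 17 core genes called. Of the 50, 35 had MHet pools that lay entirely above the Het pools, beside 18.1% of all genes, and 3 (*psmc1b*, *psmc3* and *psme4a*) met the thresholds used by the authors, beside 3.79%. In MZKO against ZKO, 8 were higher and 1, *psma4*, lower, beside 11.8% and 11.9% of all genes, with a median of 0.064. The share called was thus near the background, and all 8 of these higher genes were also among the 32 in MHet against Het. They were *psmc3*, *psmc4*, *psmc6*, *psmd2*, *psmd8*, *psmd11b*, *psmd12* and *psme4b*, 7 of them of the cap and none of the core. The other 16 of the 23 regulatory genes were not called. Without ZKO pool 1, 14 proteasome genes were called, beside 2385 higher and 2160 lower of all 25295 genes in that fit.

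**Figure D2:**
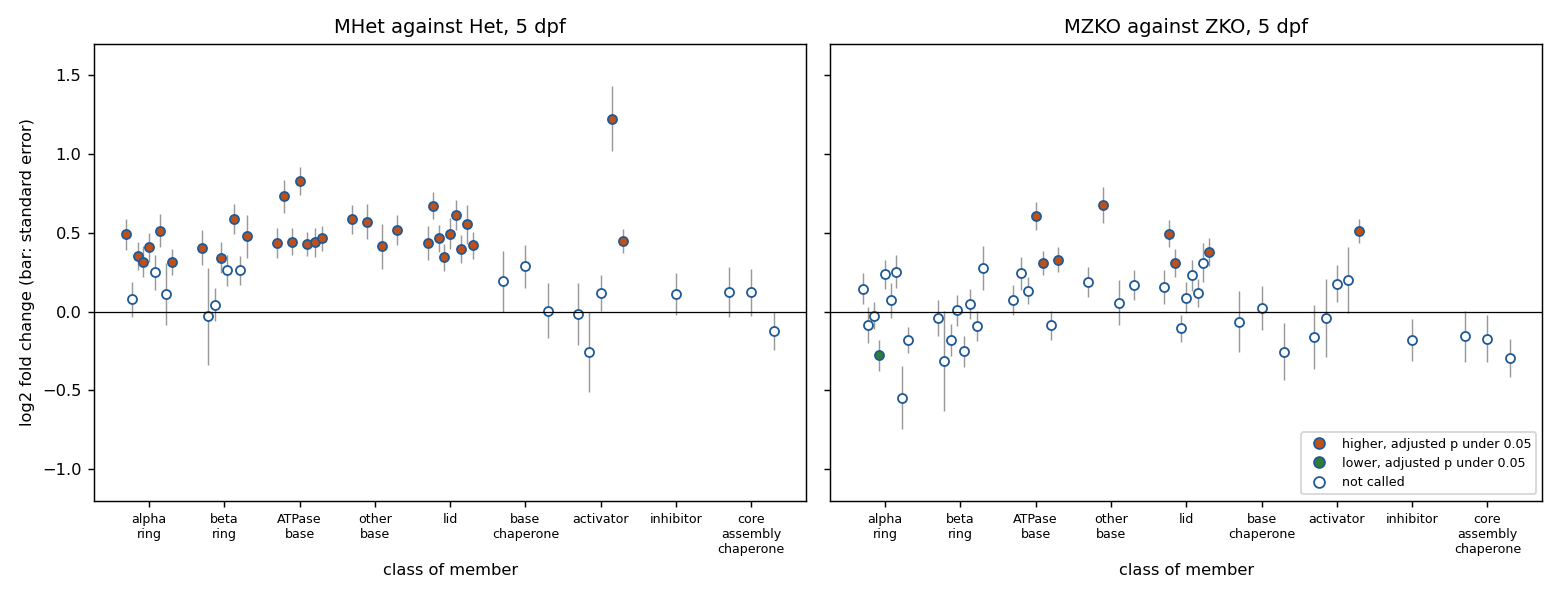
Log2 fold change at 5 dpf of the tested proteasome genes (points, *psmc3ip* left out) with the standard error from the edgeR test (bars), by class, for MHet against Het (left) and MZKO against ZKO (right). Filled points passed an adjusted p of 0.05: 32 higher on the left, and 8 higher and 1 lower on the right.

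The ATPase gene *psmc3* had the smallest p of all members in this effect. Its level was 54.2, 54.5 and 54.1 CPM in Het, 62.3, 58.1 and 54.2 CPM in ZKO, 99.1, 97.7 and 91.6 CPM in MHet and 78.8, 85.1 and 102 CPM in MZKO. No pool of a ZKO mother reached down to a pool of a Het mother, and the WT pools (59.7, 61.5 and 66.6 CPM) lay with the latter. The log2 fold change by mother was 0.72 (standard error 0.06, edgeR adjusted p = 8.65e-09), and it was 0.83 in MHet against Het and 0.61 in MZKO against ZKO. The lid gene *psmd11b*, one copy of the duplicated *psmd11*, lay at 31.4, 33.0 and 32.9 CPM in Het and 36.9, 34.0 and 32.6 CPM in ZKO, and at 48.4, 51.4 and 54.5 CPM in MHet and 45.8, 52.0 and 48.1 CPM in MZKO. Here too the pools of the mothers did not overlap (log2 fold change 0.58, standard error 0.06, edgeR adjusted p = 1.27e-07). Its copy *psmd11a* was also called, at 0.30.

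Other cap genes were called in both own genotypes or in MHet against Het alone. The interaction below, which tests whether the mother's effect differed between own genotypes, was not called for any gene of this paragraph. The ATPase gene *psmc4*, the ATPase with the most counts, rose from 75.9, 78.7 and 68.2 CPM in Het to 99.4, 98.3 and 101 CPM in MHet, and from 75.6, 70.2 and 74.0 CPM in ZKO to 87.7, 95.2 and 89.6 CPM in MZKO (log2 fold change by mother 0.37, standard error 0.05, edgeR adjusted p = 8.95e-06). The ATPase gene *psmc1b* lay at 39.1, 41.3 and 35.9 CPM in Het, 46.2, 39.1 and 38.2 CPM in ZKO, 65.0, 62.4 and 64.6 CPM in MHet and 47.8, 50.7 and 47.7 CPM in MZKO, so that every MHet and MZKO pool was above every Het and ZKO pool, and the fold was called in MHet against Het (0.73) and not in MZKO against ZKO (0.24, edgeR adjusted p = 0.0954). The large scaffold gene *psmd2* of the base lay at 25.5, 24.7 and 23.1 CPM in Het and 38.8, 39.4 and 30.1 CPM in MHet. In ZKO it was at 17.4, 23.3 and 20.8 CPM and in MZKO at 30.4, 32.2 and 36.2 CPM, and the pools of the mothers did not overlap (log2 fold change 0.63, standard error 0.08, edgeR adjusted p = 2.83e-06). The other scaffold gene, *psmd1*, stood at 112, 106 and 93.5 CPM in Het and 158, 158 and 150 CPM in MHet, a log2 fold change of 0.59, but at 111, 107 and 115 CPM in ZKO and 112, 128 and 141 CPM in MZKO, where it was not called (0.19, edgeR adjusted p = 0.148). The pools of *psmd3*, a lid gene, likewise overlapped between ZKO and MZKO and not between Het and MHet, with 79.4, 87.1 and 74.1 CPM in Het, 122, 129 and 115 CPM in MHet, 94.2, 78.4 and 85.5 CPM in ZKO and 91.9, 98.4 and 113 CPM in MZKO.

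Of the catalytic genes of the barrel, *psmb5* and *psmb7* were called in MHet against Het and none in MZKO against ZKO. Levels of *psmb5* (chymotrypsin-like activity) were 60.5, 74.4 and 59.6 CPM in Het and 98.3, 99.0 and 93.9 CPM in MHet, without overlap (log2 fold change 0.59, standard error 0.10, edgeR adjusted p = 0.00014). In ZKO they were 82.3, 68.1 and 70.3 CPM and in MZKO 69.4, 80.3 and 78.8 CPM, which overlap. For *psmb7* (trypsin-like activity) the Het pools lay at 65.6, 70.8 and 58.4 CPM and the MHet pools at 93.4, 89.5 and 86.8 CPM, a log2 fold change of 0.48, and this call was lost in 4 of 6 fits that left out a pool (0.41 to 0.54). The MZKO pools (75.8, 87.9 and 75.6 CPM) lay above the ZKO pools (73.1, 62.9 and 61.2 CPM), with 0.28 and no call (edgeR adjusted p = 0.163). For *psmb6* (caspase-like activity) the pools were at 55.2, 53.2 and 43.3 CPM in Het and 63.0, 58.2 and 59.6 CPM in MHet, and 0.26 just missed the threshold (edgeR adjusted p = 0.0547). Whether the mother's effect on these genes differed between own genotypes is given by the interaction below, which was called for *psmb5* and not for *psmb6* or *psmb7*.

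In 2 duplicated pairs the calls of the copies differed. Of the alpha genes, *psma6b* was higher by mother (0.38, standard error 0.07, edgeR adjusted p = 0.00028), with pools at 22.7 to 26.3 CPM in Het, 24.6 to 29.0 CPM in ZKO, 32.5 to 38.9 CPM in MHet and 29.2 to 35.5 CPM in MZKO. Its copy *psma6a* was not (0.16, edgeR adjusted p = 0.125), with 26.1 to 27.1 CPM in Het and 30.1 to 33.3 CPM in MHet. Of the ubiquitin receptor genes, *psmd4b* was called (0.34, standard error 0.07, edgeR adjusted p = 0.000335) and *psmd4a* was not (0.24, edgeR adjusted p = 0.0793). Levels of *psmd4b* were 30.7, 35.8 and 31.0 CPM in Het, 41.1, 33.3 and 32.7 CPM in ZKO, 46.5, 45.8 and 46.5 CPM in MHet and 39.4, 38.8 and 42.3 CPM in MZKO. Levels of *psmd4a* were 10.2, 12.9 and 14.1 CPM in Het, 14.2, 11.5 and 14.3 CPM in ZKO, 16.3, 16.5 and 16.6 CPM in MHet and 12.6, 12.2 and 16.9 CPM in MZKO, with overlap that *psmd4b* also shows in ZKO pool 1. The difference between copies was not tested, and reads that fit both copies could be counted for either, since the counting options for such reads are not given in the sources used here.

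The gene *psme4a* encodes a copy of the activator that caps the barrel without ATP, known in mammals for work in the nucleus. It lay at 54.1, 43.4 and 47.9 CPM in Het and at 129, 94.8 and 114 CPM in MHet, which made 1.22 on the log2 scale (standard error 0.21, edgeR adjusted p = 0.00183), the largest of the 50 in that comparison. The WT pools (32.1, 37.3 and 33.7 CPM), ZKO pools (26.9, 50.9 and 42.8 CPM) and MZKO pools (37.9, 54.5 and 46.7 CPM) lay far below MHet. At 5 dpf the high levels were thus in the MHet pools. The gene was also called higher by mother, and its interaction of mother and own genotype, described below, was not called. Its copy *psme4b* was higher by mother in both own genotypes, with 69.6, 68.9 and 67.1 CPM in Het, 54.7, 62.4 and 65.9 CPM in ZKO, 97.1, 90.7 and 91.6 CPM in MHet and 86.7, 86.2 and 88.8 CPM in MZKO (log2 fold change by mother 0.48, standard error 0.05, edgeR adjusted p = 3.05e-07). The difference between *psme4a* and *psme4b* was not tested. The pools of ZKO mothers did not overlap those of Het mothers for *psme4b*. The other activators, *psme1*, *psme2* and *psme3*, had log2 fold changes by mother of -0.088, -0.15 and 0.15 and were not called.

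**Figure D3:**
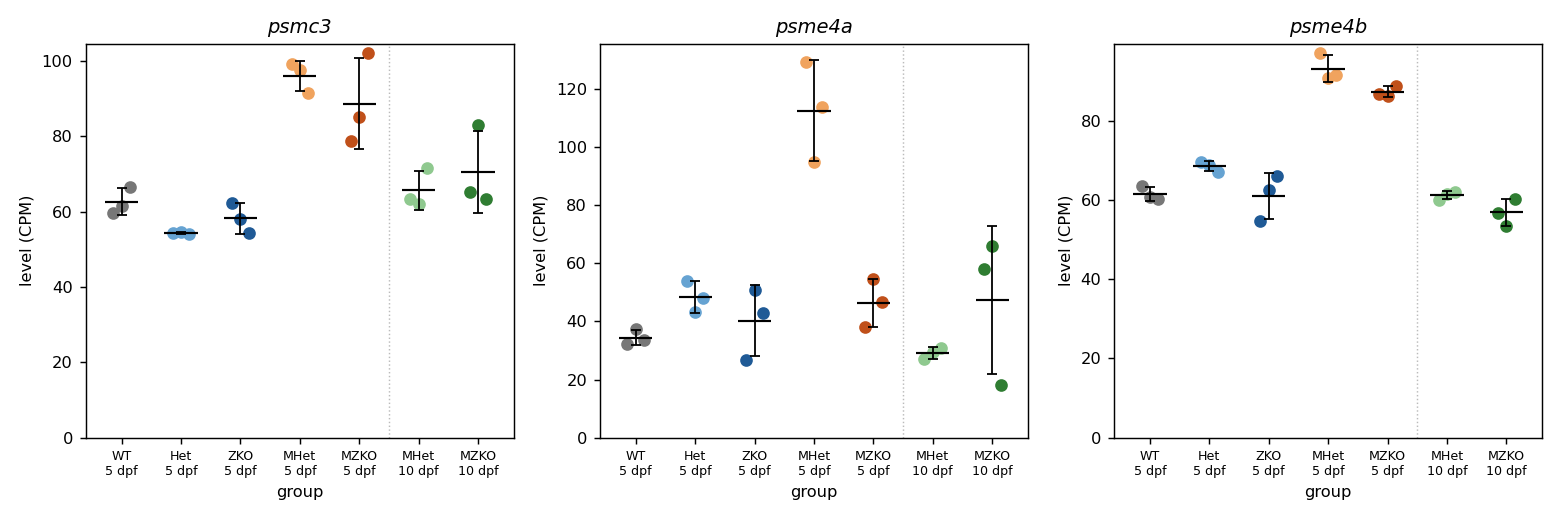
Level in CPM (axes from 0) of *psmc3*, *psme4a* and *psme4b* in each pool of the 7 groups; the long line is the mean of 3 pools and the bar its SD, and the dotted line separates 5 dpf from 10 dpf. At 5 dpf *psmc3* and *psme4b* are higher in MHet and MZKO, while *psme4a* is at 94.8 to 129 CPM in MHet alone.

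Own genotype had no called effect on the proteasome genes among larvae of Het mothers. In ZKO against WT edgeR and DESeq2 called 0 of 50, beside 1.43% of all genes called higher and 2.66% lower by edgeR. An unadjusted p under 0.05 was found for 2 of the 50, beside 4616 of all 24846 genes. Log2 fold changes ran from -0.46 to 0.28 with a median of 0.044. In Het against WT edgeR and DESeq2 called 0 of 50, beside 0.00402% of all genes higher and 0% lower by edgeR. Here 6 of the 50 had an unadjusted p under 0.05, beside 2986 of all 24846 genes. In ZKO against Het they again called 0, beside 0% in each direction by edgeR. Again 6 of the 50 had an unadjusted p under 0.05, beside 1781 of all 24846 genes. The median log2 fold change was -0.061 in Het against WT and 0.083 in ZKO against Het, against -0.0069 and 0.0068 over all genes.

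Among larvae of ZKO mothers at 5 dpf the genes stood lower in MZKO than in MHet. Of 50, 0 were higher and 9 lower, beside 5.31% and 4.34% of all genes, and 46 had a log2 fold change below 0, with a median of -0.20 against -0.012 over all genes. In 23 the MZKO pools lay entirely below the MHet pools, beside 16.2% of all genes. The 9 were *psma4*, *psma8*, *psmb4*, *psmb5*, *psmc1b*, *psmc5*, *psmd1*, *psmd13* and *psme4a*, so 4 of the core, 4 of the cap and an activator, and *psme4a* alone met the thresholds used by the authors, beside 0.885% of all genes. Without MHet pool 1 the count was 3, beside 352 of all 25266 genes called lower. Without MZKO pool 1 it was also 3, beside 508 of 25265, where the full fit called 1078 of 24846 lower.

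The largest of these differences was that of *psme4a*, from the levels given above (log2 fold change -1.28, standard error 0.21, edgeR adjusted p = 0.00286). The ATPase gene *psmc5* lay at 97.3, 88.1 and 87.1 CPM in MHet and 66.4, 72.9 and 60.1 CPM in MZKO, without overlap (-0.45, standard error 0.09, edgeR adjusted p = 0.00257). The lid gene *psmd13* lay at 75.1, 76.5 and 70.8 CPM in MHet and 57.4, 60.8 and 54.1 CPM in MZKO (-0.37, standard error 0.09, edgeR adjusted p = 0.00674). These 3 calls held in all 6 fits that left out a pool. The calls of *psma8* were lost in 6 of 6 such fits, of *psmd1* in 5, of *psma4* and *psmb5* in 3 and of *psmc1b* in 2, with the sign kept in each. The call of *psmb4* was lost at least without MHet pool 1 and without MZKO pool 1, where only the 3 stable calls remained. Tissue markers moved with this difference. Of 12 muscle markers 3 were lower and 0 higher, with a summed level of 87990 to 101700 CPM in MZKO against 97060 to 109300 CPM in MHet. Of 4 lens markers 2 were lower and 0 higher, and of 7 neuron markers 2 were lower and 0 higher. The part of these tissues in the result was not tested.

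The interaction of mother and own genotype asks whether MZKO differs from MHet by more than ZKO from Het. Of 50 genes 0 were called positive and 6 negative, beside 1.59% and 1.02% of all genes, with 46 below 0 and a median of -0.28. They were *psma4*, *psma8*, *psmb4*, *psmb5*, *psmc5* and *psmd13*. For *psma4*, an alpha ring gene, the levels were 67.5, 60.1 and 54.7 CPM in Het, 79.1, 67.3 and 63.1 CPM in ZKO, 80.2, 71.4 and 74.2 CPM in MHet and 56.7, 62.7 and 53.5 CPM in MZKO. ZKO and Het thus overlapped, and every MZKO pool lay below every MHet pool (interaction -0.60, standard error 0.14, edgeR adjusted p = 0.0262). The other alpha gene among them, *psma8*, lay at 79.3, 83.9 and 72.6 CPM in Het, 99.0, 85.2 and 83.0 CPM in ZKO, 96.7, 97.3 and 97.6 CPM in MHet and 77.1, 80.6 and 78.5 CPM in MZKO, with every MZKO pool again below every MHet pool (interaction -0.49). The call in MZKO against ZKO noted above, -0.28 for *psma4*, was lost in 4 of 6 fits that left out a pool, and with DESeq2. The interaction calls depended on single pools: 0 remained without Het pool 3, MHet pool 1 or MZKO pool 1, 1 without ZKO pool 1 or MHet pool 2, 2 without Het pool 1 or MZKO pool 3, and 3 without Het pool 2 or MHet pool 3. Over all genes, 73, 75 and 88 were called negative without Het pool 3, MHet pool 1 and MZKO pool 1, against 253 in the full fit.

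At 10 dpf, when only MHet and MZKO were sampled, most proteasome genes had higher means in MZKO, and none was called. edgeR called 0 of 54, beside 0.441% of all genes called higher and 1.23% lower. An unadjusted p under 0.05 was found for 19 of the 54, beside 4746 of all 23597 genes. DESeq2 called *psmb6* and *psmc1b* higher and *psmd2* lower, beside 358 higher and 1094 lower of all 36351 genes. In 43 the log2 fold change was above 0, with a median of 0.28 over the 54 and 0.37 over the 21 core genes, against 0.012 over all genes. The MZKO pools lay entirely above the MHet pools in 13, beside 12.8% of all genes.

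The MZKO pools were unequal. Relative to the mean of the MHet pools at 10 dpf, the median log2 ratio over 50 members was 0.22, 0.46 and 0.069 in MZKO pools 1, 2 and 3, and -0.12, -0.058 and 0.13 in the MHet pools. By this median over all 50, MZKO pool 3 thus lay within the MHet range. Over the 17 core genes among them its median was 0.20, just above the MHet pools at -0.13, -0.040 and 0.18. Over the 23 regulatory genes it was -0.048, between the MHet pools at -0.14, -0.074 and 0.15. For *psmb6*, the member nearest to a call, the levels were 49.5, 64.3 and 69.6 CPM in MHet and 91.4, 102 and 80.8 CPM in MZKO, without overlap (0.58, standard error 0.14, edgeR adjusted p = 0.0603). For *psmd14*, the deubiquitinase of the lid, they were 40.0, 42.4 and 50.1 CPM in MHet and 68.6, 75.8 and 44.3 CPM in MZKO, where pool 3 fell among the MHet pools. Pool 3 fell among the MHet pools for *psmc1b* too, at 32.4, 39.3 and 47.7 CPM in MHet and 65.7, 99.1 and 42.3 CPM in MZKO. It lay below them for *psme4a*, at 26.9, 29.6 and 31.0 CPM in MHet and 57.9, 66.03 and 18.2 CPM in MZKO.

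Without MZKO pool 3, 5 members were called higher in edgeR (*psma5*, *psmb4*, *psmb6*, *psmd14* and *psme4a*), beside 1.02% of all genes. Without MHet pool 2, 1 was called, beside 224 higher and 821 lower of all 24114 genes. In a fit of all 21 samples, chosen after the data were examined, 14 were higher and 2 lower (*psmd2* and *psme3*), beside 4.36% and 6.60% of all genes, and 10 of the 14 were core genes. The scaffold gene *psmd2*, which was among the 11 members with a log2 fold change below 0, had 22.2, 22.6 and 41.6 CPM in MHet and 19.4, 17.5 and 13.0 CPM in MZKO (-0.79, standard error 0.27, edgeR adjusted p = 0.171 in the 6 pools). Other tissues differed in the same pools: the 12 muscle markers summed to 83120 to 92690 CPM in MHet and 59960 to 65140 CPM in MZKO, with 3 called lower and 0 higher, and the 10 liver markers to 1699 to 4280 CPM and 366 to 712 CPM, with 0 called. Of the 5 red blood cell markers tested 2 were called lower and 0 higher (median -1.09). No muscle or liver marker was at 0 in any pool, and the part of these tissues in the proteasome values was not tested.

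**Figure D4:**
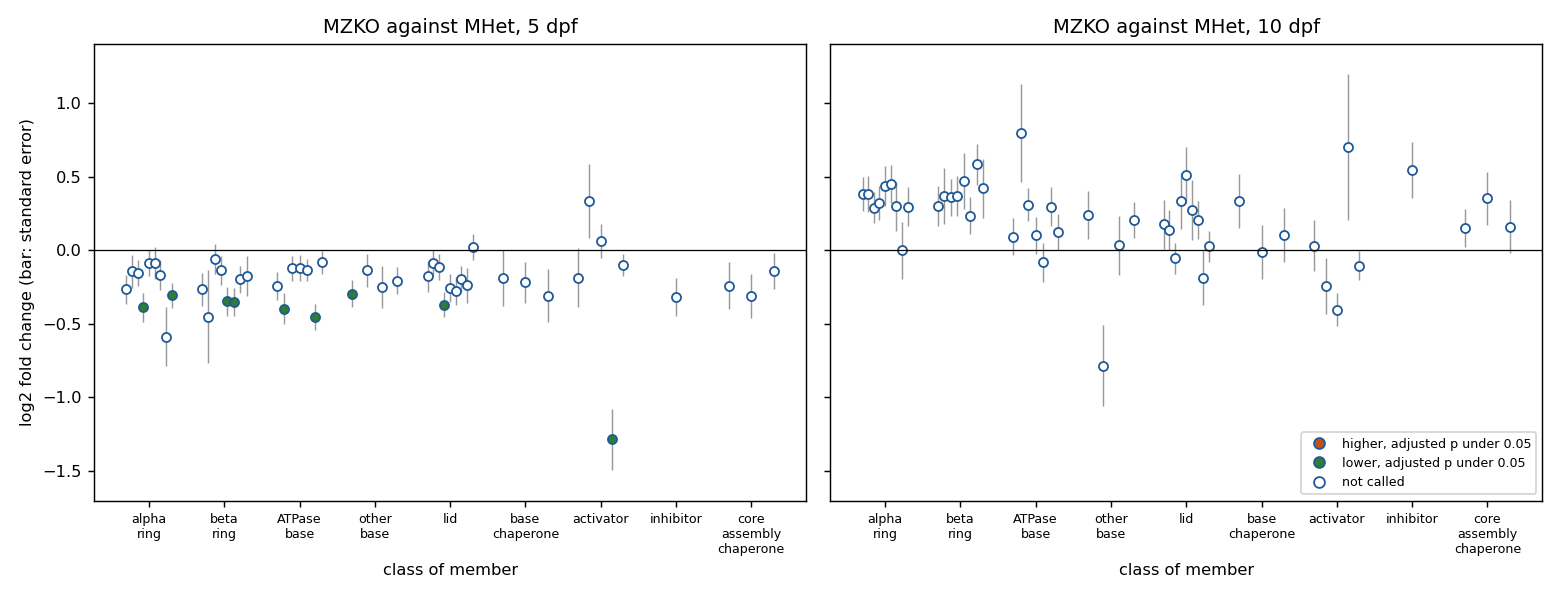
Log2 fold change of MZKO against MHet at 5 dpf (left, fit of 15 samples) and at 10 dpf (right, fit of 6 samples) by class of member, with the standard error from the edgeR test; *psmc3ip* and the 4 genes near the floor at 5 dpf are left out. Most points lie below 0 at 5 dpf, where 9 were called lower, and above 0 at 10 dpf, where 0 were called.

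The change from 5 to 10 dpf cannot be told apart from the batch. Genes of the base of the cap fell in MHet larvae, and most genes of the barrel rose in MZKO larvae. In a fit of all 21 samples, in which all 54 genes were tested, 9 were higher and 13 lower at 10 dpf in MHet, beside 19.4% and 17.7% of all genes, and the median was -0.0078. Leaving aside the 4 beta genes that passed the filter through their 10 dpf counts, 6 of 50 were higher and the median was -0.021. Of the 23 regulatory genes 9 were lower and 0 higher, among them 6 of 7 ATPase genes. None of the 9 lid genes was called in MHet (median -0.0043). Of the 21 core genes 5 were higher, 3 of them among those 4 beta genes, and 1, *psmb5*, was lower. In MZKO 31 were higher and 3 lower, beside 22% and 22.1%, with a median of 0.50 against 0.0028 over all genes. Without those 4 genes 27 of 50 were higher and the median was 0.41. Core genes made up 19 of the 31, the 4 beta genes included, and regulatory genes 7, of which 5 were lid genes. Under the thresholds used by the authors, 10 members were called in MHet and 19 in MZKO, beside 13.9% and 19% of all genes. These counts are over all 54 genes, with those 4 included, whose direction the filter largely fixed. They are not given without those 4 and so cannot be read against these shares. Tissue markers moved with age as well. In MZKO 9 of 10 liver markers were lower (median -2.27), 6 of 12 muscle markers were lower and 3 higher, and 7 of 7 neuron markers were higher. In MHet 0 of 10 liver markers were called, 7 of 12 muscle markers were lower and 2 higher, and 3 of 7 neuron markers were higher. The 5 red blood cell markers tested were lower in both, with summed levels of 1425 to 1678 CPM at 5 dpf and 303 to 575 CPM at 10 dpf in MHet and 950 to 1394 CPM and 147 to 205 CPM in MZKO, while *hbaa1* and *hbba1* were at 0 in 5 and 6 of the 6 pools of 10 dpf. The part of these tissues in the change was not tested.

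The genes that fell were in part those that differed by mother at 5 dpf. Of the 13 lower in MHet, 10 were among the 26 higher by mother, but both comparisons use the MHet pools of 5 dpf. For *psme4b* the level at 10 dpf was 60.0, 61.4 and 62.1 CPM in MHet and 56.8, 53.5 and 60.3 CPM in MZKO, below every 5 dpf pool of the same genotype (-0.61 and -0.62, standard error 0.08 each, edgeR adjusted p = 1.19e-06 and 6.16e-07) beside 54.7 to 69.6 CPM in the offspring of Het mothers at 5 dpf. For *psmc3* it was 63.4, 62.0 and 71.6 CPM in MHet (-0.55, standard error 0.10, edgeR adjusted p = 0.000146) and 65.2, 82.9 and 63.3 CPM in MZKO (-0.33), where the call was lost without MZKO pool 3 of 5 dpf. The inhibitor gene *psmf1* fell in MHet, from 12.3, 10.6 and 11.1 CPM to 7.87, 6.85 and 5.16 CPM (-0.77, standard error 0.14, edgeR adjusted p = 0.000172). In MZKO its log2 fold change was 0.091. In MZKO *psmd2* fell from the levels given above, with no overlap (-0.98, standard error 0.19, edgeR adjusted p = 0.000398).

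Among the genes that rose, the activator genes *psme1* and *psme2*, which in mammals form the interferon-inducible cap, had some of the largest folds outside the low beta genes. Levels of *psme1* were 4.26, 4.71 and 6.24 CPM in MHet at 5 dpf and 18.3, 13.7 and 17.8 CPM at 10 dpf (1.71, standard error 0.19, edgeR adjusted p = 1.35e-07). In MZKO they were 4.19, 5.25 and 3.92 CPM and 13.7, 17.2 and 20.0 CPM (1.92, edgeR adjusted p = 1.93e-08). For *psme2* the level went from 2.22, 1.98 and 2.74 CPM to 13.1, 8.57 and 9.48 CPM in MHet and from 3.47, 2.07 and 3.25 CPM to 9.04, 8.33 and 8.86 CPM in MZKO, by 2.16 and 1.58. The third gene of this family, *psme3*, whose product is nuclear in mammals, rose from 23.1, 23.6 and 25.5 CPM to 58.1, 45.8 and 55.0 CPM in MHet and from 23.3, 29.4 and 22.9 CPM to 40.0, 39.9 and 40.1 CPM in MZKO, by 1.14 and 0.67. In none of these was there overlap between ages. The alpha gene *psma6l* rose by 0.85 in MHet and 1.43 in MZKO, from 4.84, 4.17 and 4.25 CPM to 9.12, 7.59 and 7.19 CPM in MHet and from 2.41, 3.23 and 3.20 CPM to 6.39, 8.86 and 8.70 CPM in MZKO.

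The inducible beta genes of the immunoproteasome held few counts at 5 dpf and more at 10 dpf. At 5 dpf *psmb8a* had 0 to 8 counts in the 15 pools and at 10 dpf 20 to 41 counts in the 6 pools. For *psmb12* the counts were 0 to 5 and 11 to 33, for *psmb13a* 0 to 4 and 6 to 34, and for *psmb9a* 2 to 14 and 15 to 39. Their levels at 10 dpf were 0.39 to 2.07 CPM. Of these, *psmb8a*, *psmb12* and *psmb13a* reached the 10 counts of the filter only at 10 dpf. The gene *psmb9a* reached it at both ages, but in too few pools of 5 dpf to pass on those alone. The filter thus largely fixed the direction with age of these 4 genes, and their values are a description.

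Scaled for depth, summed counts of *psmb8a* at 10 dpf were 105 times those at 5 dpf in MHet, 89 counts against 1 (95% exact interval of the counts 18.3 to 4181) and 13.2 times in MZKO (5.80 to 37.2). For *psmb12* the ratios were 15.9 (5.86 to 60.4) and 10.1 (5.25 to 21.7), and for *psmb9a* 2.40 (1.47 to 4.00) and 9.12 (4.72 to 19.7). For *psmb13a* the MHet pools of 5 dpf were at 0, so no ratio could be formed. The lower exact limit for a count of 0 was 11.5, and an assumed floor of 3 counts over the group gave 14.9. In MZKO the ratio of *psmb13a* was 46.7 (12.5 to 391). These intervals cover counting error only and not the spread between pools. They do not test the rise, since the filter chose these genes through their counts at 10 dpf. The remaining inducible gene, *psmb10*, was counted at both ages and rose from 3.38, 1.88 and 2.41 CPM to 5.07, 6.02 and 5.16 CPM in MHet (1.08, standard error 0.27, edgeR adjusted p = 0.00261). In MZKO it rose from 1.35, 2.35 and 1.93 CPM to 6.53, 7.63 and 6.89 CPM (1.90, standard error 0.27, edgeR adjusted p = 5.3e-06).

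Even at 10 dpf the inducible genes *psmb8a*, *psmb9a* and *psmb10* were a small part of the catalytic transcripts. Their share was taken of the summed CPM of these genes and *psmb5*, *psmb6* and *psmb7*, leaving out *psmb12* and *psmb13a*. It was 3.45 ± 0.606% in MHet and 3.17 ± 0.423% in MZKO, against 1.19 ± 0.227% and 1.01 ± 0.146% at 5 dpf (SD, n = 3 each). The shares were not corrected for transcript length. In the RefSeq annotation of another assembly, GRCz12tu, in which 55 of the 56 symbols were found, *psmb13a*, *psmb8a*, *psmb12* and *psmb9a* are neighbours in this order on chromosome 19, between the MHC gene *mhc1uba* and the peptide transporter gene *tap2a*. Of 14 tested genes of interferon response and antigen presentation, 7 were higher and 3 lower with age in MHet, beside 19.4% and 17.7% of all genes, and 9 and 1 in MZKO, beside 22% and 22.1%. The summed level of that list rose from 167 to 171 CPM to 297 to 362 CPM in MHet and from 182 to 206 CPM to 331 to 363 CPM in MZKO, while *mhc1uba* was at 0 counts in all pools. Of 10 leukocyte markers, read against the same shares, 5 were higher and 0 lower in MHet and 4 and 1 in MZKO, with summed levels of 33.2 to 36.9 CPM and 39.8 to 60.1 CPM in MHet and 37.3 to 44.0 CPM and 36.9 to 61.3 CPM in MZKO, and no leukocyte marker was at 0 in any pool. The part of leukocytes in the change was not tested.

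**Figure D5:**
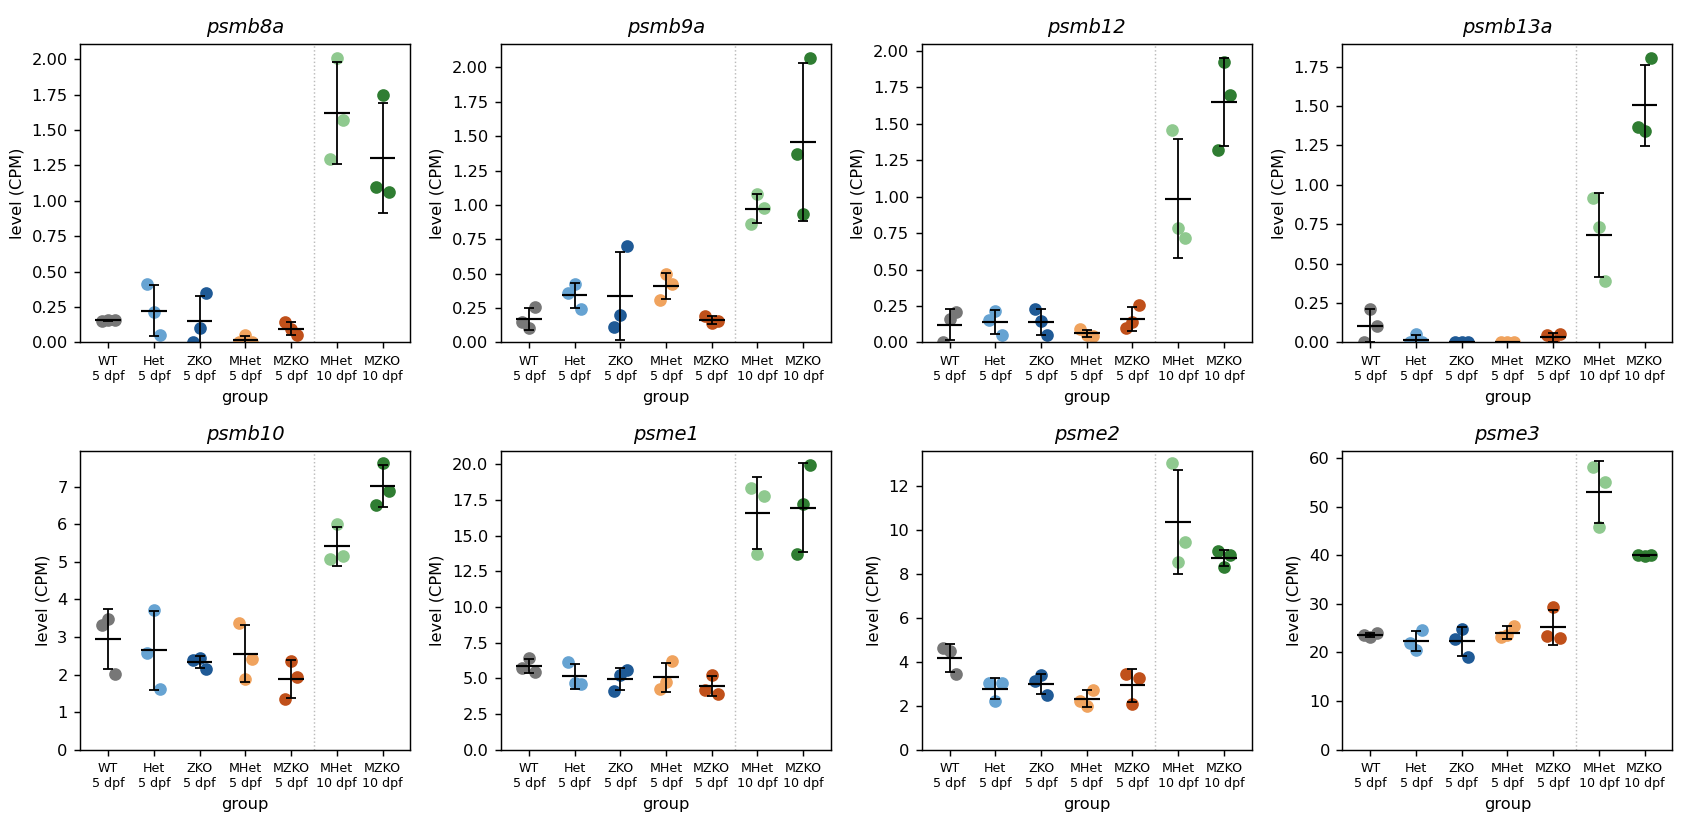
Level in CPM (axes from 0) in each pool of the 7 groups of the inducible beta genes *psmb8a*, *psmb9a*, *psmb12*, *psmb13a* and *psmb10* and of the activator genes *psme1*, *psme2* and *psme3*; the long line is the mean of 3 pools and the bar its SD, and the dotted line separates 5 dpf from 10 dpf. Levels of *psme1* lie at 13.7 to 20.0 CPM at 10 dpf in MHet and MZKO and at 3.92 to 6.42 CPM at 5 dpf.

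The difference between MZKO and MHet itself changed from 5 to 10 dpf. Each part of this contrast lies within a batch, but the ages are different batches, so age and batch cannot be told apart here either. Of 54 genes 20 were called with a more positive difference at 10 dpf and 1, *psme3*, with a more negative one, beside 6.65% and 7.46% of all genes, with a median of 0.43 against -0.013 over all genes. The 20 were 12 of 21 core genes, 6 of 23 regulatory genes, *psme4a* and *psmf1*. Under the thresholds used by the authors 4 remained (*psma4*, *psmb6*, *psmc5* and *psmf1*), beside 3.6% of all genes. The count was 13 without MHet pool 1 of 5 dpf or MHet pool 1 of 10 dpf and 12 without MZKO pool 2 of 10 dpf. Over all genes, 1042, 1175 and 1303 were called more positive in these fits, in that order, against 1685 in the full fit. Tissue markers shifted in the same contrast. Of 10 liver markers 8 were called more negative and 0 more positive (median -1.92). Of 12 muscle markers 3 were more negative and 0 more positive, and of 7 neuron markers 3 were more positive and 0 more negative. The part of these tissues in the proteasome values was not tested.

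Named members show how the groups moved. For *psmc5* the MHet pools went from 97.3, 88.1 and 87.1 CPM to 62.4, 65.7 and 76.7 CPM, while the MZKO pools went from 66.4, 72.9 and 60.1 CPM to 83.0, 96.8 and 71.5 CPM (interaction 0.75, standard error 0.15, edgeR adjusted p = 0.00233). The groups of MHet did not overlap between ages and those of MZKO did. For *psma4* MHet went from 71.4 to 80.2 CPM at 5 dpf to 76.0 to 85.7 CPM at 10 dpf, and MZKO from 53.5 to 62.7 CPM to 90.2 to 113 CPM (0.71, standard error 0.15, edgeR adjusted p = 0.00302). For *psmb6* the MHet pools overlapped between ages and the MZKO pools went from 51.2, 55.5 and 51.3 CPM to the 80.8 to 102 CPM given above (0.78, standard error 0.16, edgeR adjusted p = 0.00261). The largest called interaction was that of *psme4a*, at 1.98 (standard error 0.48, edgeR adjusted p = 0.0149), with MZKO pool 3 of 10 dpf at 18.2 CPM against 57.9 and 66.03 CPM in the other MZKO pools. The call of *psme3* was lost in 9 of 12 fits that left out a pool.

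Genes outside the symbol pattern that belong to the same pathway were counted from lists, and their counts by mother stand beside 15.6% of all genes called higher and 15.8% lower. Of 11 partners of the particle, 4 were higher by mother and 0 lower: *ecpas* (0.77), which encodes an adaptor of the proteasome, the deubiquitinase gene *usp14* (0.40), *txnl1* (0.40) and the ubiquitin receptor gene *adrm1* (0.31). The level of *ecpas* was 37.0, 38.9 and 33.1 CPM in Het, 33.3, 37.6 and 39.6 CPM in ZKO, 61.9, 73.9 and 62.8 CPM in MHet and 56.5, 57.2 and 61.3 CPM in MZKO, and the pools of the mothers did not overlap. The lid subunit gene *sem1* (0.0027) and the core assembly gene *pomp* (0.029) were not called. Of 12 regulators, 5 were higher and 2 lower. Those higher were *nfe2l1b* (0.56), a copy of the gene whose product in mammals switches on proteasome genes when the particle fails, *ngly1* (0.56) and *ddi2* (0.27), whose products process that factor, *nfe2l3* (0.53) and *nfe2l2a* (0.19), and those lower were *mafk* (-0.98) and *nfe2l2b* (-0.28). The copy *nfe2l1a* was not called (0.25).

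Of 9 genes that bring substrates to the proteasome 5 were higher by mother, among them *vcp* (0.46), which encodes the ATPase that extracts proteins from membranes and complexes, and its cofactor genes *nploc4* (0.54) and *nsfl1c* (0.37). Of 5 ubiquitin genes *ubb* (0.49) and the activating enzyme gene *uba1* (0.31) were higher and *ubc* (-0.27) and *rps27a* (-0.21) lower. The level of *ubb* was 919, 878 and 833 CPM in Het and 1735, 1578 and 1550 CPM in MHet, but 960, 920 and 909 CPM in ZKO and 970, 995 and 1012 CPM in MZKO. Like *psme4a* it was high in MHet at 5 dpf, and lower in MZKO than in MHet (-0.71). The muscle ubiquitin ligase genes *fbxo32*, *trim63a* and *trim63b*, known in mammals for rising in wasting muscle, were lower in MZKO than in MHet at 5 dpf (-2.49, -1.53 and -0.78). For *fbxo32* the levels were 76.7, 56.9 and 60.7 CPM in MHet and 4.82, 25.4 and 4.12 CPM in MZKO at 5 dpf, and 20.7, 53.8 and 38.8 CPM and 97.3, 119 and 11.6 CPM at 10 dpf. The same MZKO pool 3 that was low in *psme4a* and *psmd14* at 10 dpf was thus the low pool here, and the interaction with age was called for all 3 ligase genes (3.50, 2.43 and 0.88, edgeR adjusted p = 0.0320, 0.0110 and 0.0245).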

How the data were processed

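The authors sequenced polyA RNA of pooled whole larvae as directional libraries, aligned the reads to GRCz11 (danRer11) with HISAT2 and counted them with featureCounts on the Lawson annotation. The deposited values are raw counts per gene, without normalization, for 21 samples, and all were used. How strand and multi-mapping reads were treated is not given in the sources used here. Columns of other samples were 0.

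From the deposited counts, edgeR 4.0.16 (R 4.3.3) was run with filterByExpr, TMM scaling and robust quasi-likelihood fits of group means across all genes, with Benjamini-Hochberg adjustment: 15 samples for contrasts at 5 dpf, 6 at 10 dpf and 21 for age. Standard errors were derived from each log2 fold change and its F statistic and so restate the test. CPM are counts over TMM-scaled library sizes of all 21 samples. Labels do not say that pools came from separate clutches, so p-values measure the spread between these pools. Pools of a group differed beyond counting noise (chi-square over genes tested, 6.58 to 24.6 each). Replicate numbers gave no sign of pairing the samples, and the labels do not say whether they do.

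The members and lists were chosen with earlier results of these data known. Values per pool are given for the 3 higher and 3 lower called members of smallest p in each comparison, catalytic beta genes, the member of each class with most counts and copies whose calls by mother differed; *psmb4*, *psmd14*, pathway genes and fold changes of others were added after values were seen. Alternatives were DESeq2 1.42.0, its size factors in edgeR, no filter, a replicate block, the authors' thresholds, only the groups compared, and each pool left out. The fits were tested on simulated data. Figures were made with Python and matplotlib 3.10.9.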

Additional observations from a re-analysis of the deposited data

Results flagged for a closer look

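The effect of own genotype differed for 6 members according to the mother at 5 dpf, tested as an interaction in edgeR with Benjamini-Hochberg adjustment over all genes. The interactions (log2) were -0.60 for *psma4*, -0.49 for *psma8*, -0.51 for *psmb4*, -0.54 for *psmb5*, -0.53 for *psmc5* and -0.45 for *psmd13*, with adjusted p of 0.0262 to 0.0474. Each of these calls was lost in some fits that left out a pool, and 0 remained without Het pool 3, MHet pool 1 or MZKO pool 1.

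The difference between MZKO and MHet changed between 5 and 10 dpf for 21 members, with adjusted p of 0.00233 to 0.0492 in edgeR. Over all genes, 6.65% were called more positive and 7.46% more negative. In the alpha ring the interactions were 0.64 for *psma1*, 0.52 for *psma2*, 0.44 for *psma3*, 0.71 for *psma4*, 0.52 for *psma5*, 0.54 for *psma6a* and 0.60 for *psma8*. In the beta ring they were 0.56 for *psmb1*, 0.50 for *psmb3*, 0.81 for *psmb4*, 0.58 for *psmb5* and 0.78 for *psmb6*. In the cap they were 1.19 for *psmc1b*, 0.43 for *psmc2*, 0.75 for *psmc5*, 0.53 for *psmd1*, 0.70 for *psmd13* and 0.76 for *psmd14*. The activators *psme3* and *psme4a* had -0.47 and 1.98 and the inhibitor *psmf1* 0.86. The calls of *psmc1b* and *psme4a* were lost when only the groups compared were fitted. In fits that left out a pool, the calls of *psmd1* and *psme3* were each lost in 9 of 12. That of *psma6a* was lost in 6 of 12.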

How the results depend on the processing

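With DESeq2 or its size factors, without the filter, or with only the groups compared in the fit, the counts of called members moved by less than 1.5 times in every comparison of 5 dpf and of age. At 10 dpf the count for MZKO against MHet was 0 in edgeR, 3 with DESeq2, 1 with no filter and 16 with all 21 samples in the fit, the last chosen after the data were examined. Over all genes, edgeR called 104 higher and 290 lower of 23597, and DESeq2 358 and 1094 of 36351. With no filter 238 and 579 of 32165 were called, and with all 21 samples 1106 and 1673 of 25346. The thresholds used by the authors lowered the counts to 2 by mother, 3 in MHet against Het, 0 in MZKO against ZKO, 1 in MZKO against MHet at 5 dpf, 0 in the interaction of mother and own genotype, 10 and 19 with age in MHet and MZKO and 4 in the interaction of age and genotype. The counts with age, here and below, are over all kept genes, the 4 low beta genes included, whose direction the filter largely fixed.

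Leaving out each pool in turn gave 24 to 29 calls by mother, 26 to 31 in MHet against Het, 8 to 14 in MZKO against ZKO (14 without ZKO pool 1), 0 to 0 in ZKO against WT, Het against WT and ZKO against Het, 3 to 7 in MZKO against MHet at 5 dpf (3 without MHet pool 1 or MZKO pool 1), 0 to 5 in the mother by own genotype interaction, 0 to 5 in MZKO against MHet at 10 dpf (5 without MZKO pool 3), 18 to 25 and 31 to 37 with age in MHet and MZKO, and 12 to 26 in the age by genotype interaction (12 without MZKO pool 2 of 10 dpf). Over all genes the calls moved too. By mother, 24 stood beside 3714 higher and 3530 lower of 25258, and 29 beside 3647 and 3521 of 25295. In MHet against Het, 26 stood beside 1321 and 1424 of 25266, and 31 beside 1514 and 1700 of 25269. In MZKO against ZKO, 8 stood beside 2524 and 2367 of 25258. With age, 18 in MHet stood beside 4057 and 3735 of 25802, and 31 in MZKO beside 4795 and 5235 of 25761. The 12 interaction calls with age stood beside 1303 and 1462 of 25761. The cause of these changes was not tested.

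With the replicate number as a block the count was 27 by mother, 33 in MHet against Het, 8 in MZKO against MHet at 5 dpf and 19 in the age by genotype interaction. In that order, 3792, 1981 and 1308 of all 24846 genes were called higher and 3858, 2113 and 1071 lower. For the age by genotype interaction 1520 of 25346 were called more positive and 1686 more negative. Deviations of same-numbered samples had correlations of -0.18 to 0.18, which gave no sign of pairing but cannot show that the pools are unpaired. Of 105 results on named genes, 629 alternative values outside the left-out pools kept the direction, 542 with the same call and 87 without it, and of 822 values with a pool left out 690 kept the call and 132 lost it, with 0 reversed. The thresholds used by the authors were applied to the main fit, so under them the direction could not change. Results with age of the low beta genes are included, with a direction largely fixed by the filter. Depth limits the 4 low beta genes at 5 dpf, whose pools held 0 to 14 counts.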
